A study of Mus musculus with 8 samples.

Results

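Transcripts of 10 genes that are commonly used as readouts of the canonical Wnt pathway, Axin2, Nkd1, Notum, Rnf43, Znrf3, Lgr5, Tcf7, Sp5, Tbx3 and Glul, were followed in Hepa 1-6 cells depleted of KAP1. The genes were listed by name, and they were chosen by someone who knew their measured level and their change in each pair of samples, so their change upon knockdown is given as a description and without a test. All 10 were found among the 21915 genes of the poly(A) RNA count table, and 10 of 10 passed the filter on low counts, which kept 14142 genes.

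Hepa 1-6 is a murine hepatoma cell line, and KAP1, the product of the gene Trim28, is a transcriptional co-regulator. Cells given a pLKO vector for an shRNA against Kap1 (Kap1 KD, 2 libraries) were compared with control cells (2 libraries), which the labels describe as given a control shRNA and the study's methods as given the empty vector. For the delivery, the labels speak of plasmid transfection in 1 place and of transduction in another, and the methods of transduction. Both groups were selected with puromycin according to those methods and collected 5 days after transduction. In each group the title of 1 library ends in the number 2, and that library is called replicate 2 here, the other replicate 1. The total counts were 53605115 and 49915004 in control replicates 1 and 2, and 41566888 and 49578846 in Kap1 KD replicates 1 and 2. Nothing states that the replicates came from separate cultures, so p-values measure only the spread between these samples.

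In the canonical pathway, a Wnt ligand bound to a Frizzled receptor and an LRP co-receptor halts the destruction of β-catenin, which then enters the nucleus and activates genes together with TCF/LEF factors. Many of these genes encode inhibitors of the pathway itself, among them Axin2, Nkd1, Notum, Rnf43 and Znrf3, so that signalling builds its own negative feedback. In the liver, Wnt signalling is known for setting up the pericentral zone, where hepatocytes express glutamine synthetase (Glul), Axin2, Lgr5 and Tbx3, and mutations that activate β-catenin are frequent in liver tumours.

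The knockdown itself was visible in every library. Trim28 was at 456 and 574.5 CPM (counts relative to library size, scaled by the trimmed mean of M values, TMM) in control replicates 1 and 2, and at 106 and 78.9 CPM in Kap1 KD replicates 1 and 2. Its log2 change was -2.48 (SE 0.25, n = 2 per group), and it had the lowest unadjusted p of the table. Nevertheless, with the edgeR quasi-likelihood test and Benjamini-Hochberg adjustment, 0 of 14142 genes (0%) passed a 1.5-fold change at an adjusted p under 0.05, and the adjusted p of Trim28 was 0.9999. At an unadjusted p under 0.05 there were 185 genes (1.31%), 88 higher and 97 lower in Kap1 KD, and DESeq2 called 3 genes, 2 higher and 1 lower, with an adjusted p of 2.57e-10 for Trim28. These calls use no replicate term, and they changed with the replicate number as a block, as described below with the processing. In bulk RNA such as this, fewer cells of a type and less RNA per cell cannot be told apart.

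The difference between replicate numbers was larger than that between groups across the transcriptome. The median absolute log2 difference over the tested genes was 0.37 between replicate numbers and 0.15 between Kap1 KD and control. For this reason each Wnt target gene is given below in all 4 libraries, and the difference between the replicate numbers is described separately. It comes from the same levels, which were known when the genes were chosen, so for these genes it is given without a test as well. Where a library is left out below, the groups no longer hold the same replicate numbers. The change then also takes in the difference between those numbers.

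Among the intracellular inhibitors, Axin2 (ENSMUSG00000000142, mm9 chr11:108781663-108812097, plus strand) encodes a scaffold of the β-catenin destruction complex and is the most widely used readout of the pathway. It stood at 264.5 and 275 CPM in control replicates 1 and 2, and at 217 and 205 CPM in Kap1 KD replicates 1 and 2. Both Kap1 KD libraries were below both controls, and the 4 values lay close together within each group. The mean was 21.8% lower in Kap1 KD, with a log2 change of -0.36 (SE 0.16) and of -0.29 and -0.42 in pairs 1 and 2 of same-numbered samples. Exons of Axin2 share 209 bases with the opposite-strand gene Gm11670, and since the strand setting of the counting is not given in the sources used here, the share of reads from that partner is unknown.

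Nkd1 (ENSMUSG00000031661, chr8:91045243-91118786, plus strand), which binds Dishevelled and antagonises the signal, had a like profile. Its level was 138 and 147 CPM in the controls and 103 and 99.6 CPM in Kap1 KD, in the order of replicates 1 and 2. The groups did not overlap, and the mean was 28.8% lower in Kap1 KD (log2 change -0.49, SE 0.16; -0.42 and -0.56 in the pairs).

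Notum, Rnf43 and Znrf3 restrain the pathway at the cell surface. Notum (ENSMUSG00000042988, chr11:120515102-120522489, minus strand), a secreted esterase that removes the lipid that Wnt ligands need for receptor binding, was the least abundant of the 10 per length. It had 753 and 371 counts in control replicates 1 and 2, and 314 and 136 counts in Kap1 KD replicates 1 and 2, or 13.5, 7.48, 7.37 and 2.91 CPM in that order. Both Kap1 KD values lay below both controls, but Kap1 KD replicate 1 was below control replicate 2 by only a small margin, and with total counts in place of TMM those groups overlapped. The log2 change was -1.03 (SE 0.56), with -0.87 and -1.33 in the pairs, and was -0.54 without control replicate 1, -1.85 without Kap1 KD replicate 1 and -0.50 without Kap1 KD replicate 2. Notum shares 708 exonic bases with 4732444A12Rik and 210 with Gm11768, both on the opposite strand, so that its counts are uncertain.

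Rnf43 (ENSMUSG00000034177, chr11:87476224-87549041, plus strand) and Znrf3 (ENSMUSG00000041961, chr11:5176327-5344850, minus strand) encode related transmembrane ubiquitin ligases that clear Frizzled receptors from the membrane. Rnf43 was at 80.8 and 63.5 CPM in the controls and at 66.4 and 42.5 CPM in Kap1 KD. Znrf3 was at 43.7 and 31.9 CPM in the controls and at 34.5 and 25.9 CPM in Kap1 KD. For both genes the groups overlapped, with replicate 2 lower than replicate 1 in either group, while within each pair Kap1 KD was below its control. The log2 change of Rnf43 was -0.41 (SE 0.29), with -0.28 and -0.58 in pairs 1 and 2. For Znrf3 it was -0.32 (SE 0.27), with -0.34 and -0.30 in the pairs. Both changes moved when a library was left out, so that the groups no longer held the same replicate numbers. That of Rnf43 was -0.22 without control replicate 1, -0.76 without Kap1 KD replicate 1 and -0.11 without Kap1 KD replicate 2. That of Znrf3 was -0.08 and -0.51 without control replicates 1 and 2, and -0.54 and -0.12 without Kap1 KD replicates 1 and 2.

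Lgr5 (ENSMUSG00000020140, chr10:114887367-115024836, minus strand) encodes a receptor for R-spondins, which protect Frizzled from Rnf43 and Znrf3, and marks Wnt-responsive stem cells in several epithelia. It was at 66.2 and 32 CPM in control replicates 1 and 2, and at 48.8 and 20.5 CPM in Kap1 KD replicates 1 and 2. The groups overlapped and the replicate 2 libraries were the low ones. The log2 change was -0.50 (SE 0.55), with -0.44 and -0.64 in the pairs. Its sign rested on single libraries, since it was 0.11 without control replicate 1 and 0.00 without Kap1 KD replicate 2, and -0.92 without control replicate 2 and -1.26 without Kap1 KD replicate 1, comparisons in which the groups no longer hold the same replicate numbers.

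**Figure D1:**
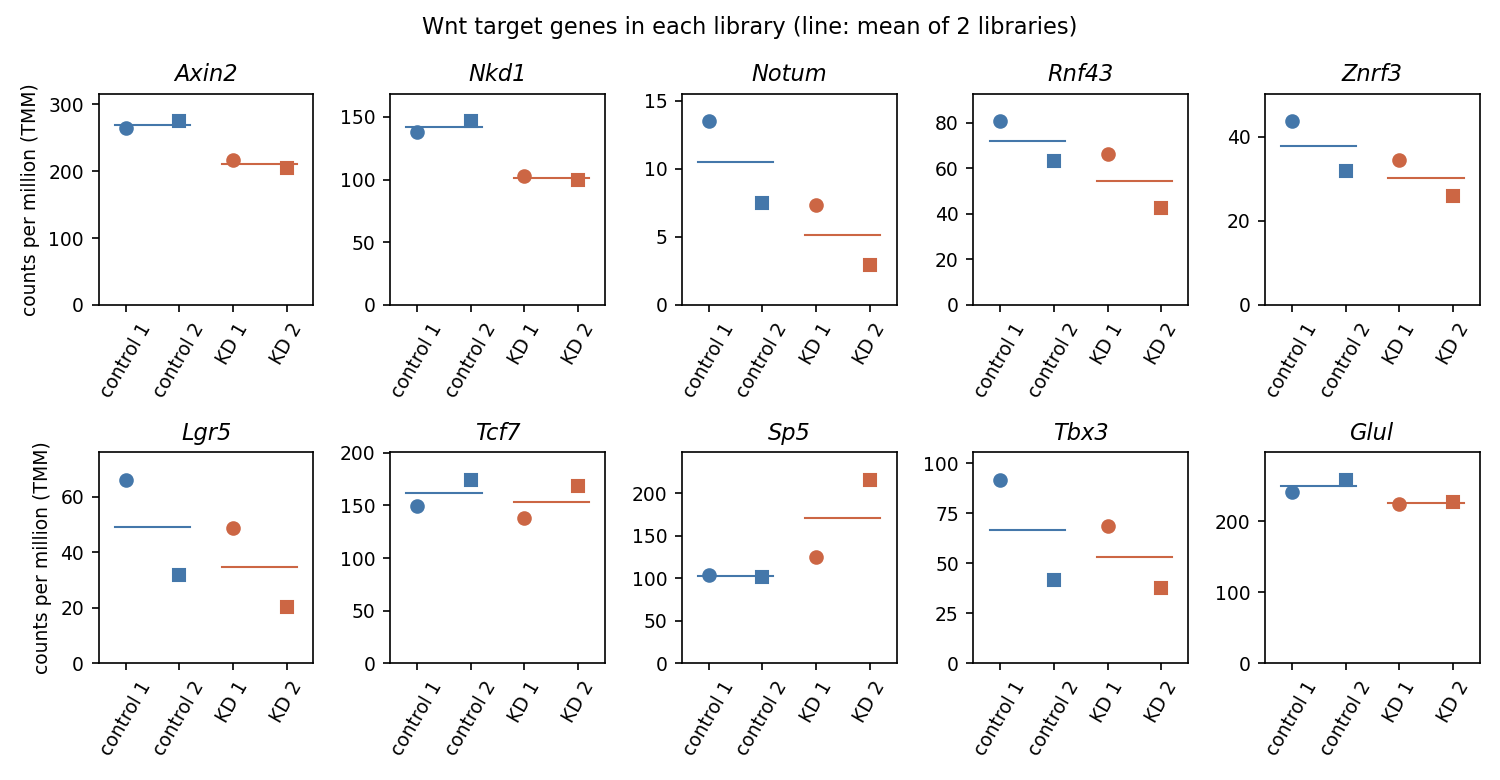
CPM (TMM-scaled, linear axis from 0) of each Wnt target gene in the 4 libraries; circles are replicate 1, squares replicate 2, blue control, orange Kap1 KD, and each line is the mean of 2 libraries. Axin2 and Nkd1 are lower in both Kap1 KD libraries, Sp5 is higher, with 216 CPM in Kap1 KD replicate 2, and Lgr5 and Tbx3 are low in both replicate 2 libraries.

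The list holds 3 transcription factors. Tcf7 (ENSMUSG00000000782, chr11:52065873-52096681, minus strand), which encodes the TCF/LEF factor TCF1 and is itself a target of the pathway, was at 149.6 and 175 CPM in the controls and at 138 and 169 CPM in Kap1 KD. The groups overlapped, and the log2 change was -0.08 (SE 0.20), which became -0.19 and 0.05 without control replicates 1 and 2, and 0.06 and -0.23 without Kap1 KD replicates 1 and 2. Tbx3 (ENSMUSG00000018604, chr5:120120678-120134733, plus strand), a T-box factor expressed around the central vein, was at 91.9 and 41.9 CPM in the controls and at 68.9 and 37.8 CPM in Kap1 KD. Here too the groups overlapped and replicate 2 was low in both, with a log2 change of -0.33 (SE 0.49) that became 0.35 and -0.76 without control replicates 1 and 2, and -0.82 and 0.06 without Kap1 KD replicates 1 and 2. Tbx3 shares 115 exonic bases with the opposite-strand gene Gm2301.

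Sp5 (ENSMUSG00000075304, chr2:70312980-70315786, plus strand), a zinc-finger factor of the Sp family that is induced by Wnt in many cell types, differed in the other direction. It was at 104 and 102 CPM in control replicates 1 and 2, and at 125 and 216 CPM in Kap1 KD replicates 1 and 2. Both Kap1 KD libraries were above both controls, the controls were nearly equal, and Kap1 KD replicate 2 was well above Kap1 KD replicate 1. The log2 change was 0.73 (SE 0.30), with 0.26 in pair 1 and 1.09 in pair 2, and it was 0.29 without Kap1 KD replicate 2. With a correction for GC content, chosen after seeing the data and described below, it was 0.51.

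The sequence upstream of the start site is shown for Sp5, the gene with higher values in Kap1 KD, and for Axin2, the best-known gene with lower values. RefSeq promoters (GRCm38.p6 table, 250 bases before to 50 after the start) were listed for 6 of the 10 genes, namely Axin2, Glul, Nkd1, Rnf43, Sp5 and Tcf7, as 8 promoters, and not for Lgr5, Notum, Tbx3 and Znrf3. All 8 were located in mm9 by exact match and searched on both strands for 4 words, CTTTG followed by AA, AT, TA or TT, which are forms of the TCF/LEF motif. Only the Sp5 promoter held any, 2 in number, which begin 222 and 104 bases before the start site. Of the 32851 promoters of 300 bases in the table, 16.9% held at least 1 of these words. The 250 bases before the start site are given 5′ to 3′ for Sp5 (chr2:70312730-70312979, plus strand) and Axin2 (chr11:108781413-108781662, plus strand), with the words in capitals, the first of them read on the minus strand. A match is a description of the letters only.
Sp5: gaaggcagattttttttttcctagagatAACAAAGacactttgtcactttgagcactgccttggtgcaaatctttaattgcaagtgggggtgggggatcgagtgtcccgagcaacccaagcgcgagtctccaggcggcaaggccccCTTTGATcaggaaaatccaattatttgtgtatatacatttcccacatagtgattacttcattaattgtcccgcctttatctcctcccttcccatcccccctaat
Axin2: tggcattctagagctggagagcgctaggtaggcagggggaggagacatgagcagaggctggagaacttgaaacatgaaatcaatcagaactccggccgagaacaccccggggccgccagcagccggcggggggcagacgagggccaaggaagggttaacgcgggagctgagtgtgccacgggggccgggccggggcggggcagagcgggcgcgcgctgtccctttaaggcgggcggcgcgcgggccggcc

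Glul (ENSMUSG00000026473, chr1:155747074-155756853, plus strand), the glutamine synthetase gene of pericentral hepatocytes, was at 242 and 259 CPM in the controls and at 224 and 228 CPM in Kap1 KD. The groups did not overlap, although the difference was small, 9.7% of the mean (log2 change -0.15, SE 0.16; -0.11 and -0.18 in the pairs), and the log2 change was -0.08 without control replicate 2. Glul shares 67 exonic bases with 5830403L16Rik on the opposite strand.

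Over the list, 9 of 10 genes were lower in Kap1 KD in both pairs and 1, Sp5, was higher in both. Over all tested genes, 38.1% were lower in both pairs and 32.8% higher in both. The groups did not overlap for 4 genes that were lower (Axin2, Nkd1, Notum and Glul; 10.6% of all tested genes) and for 1 that was higher (Sp5; 9.69% of all tested genes). The median log2 change was -0.34 over the 10 genes and -0.02 over all tested genes. These counts use the contrast by which the genes were chosen, so nothing is read from the comparison with the background.

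**Figure D2:**
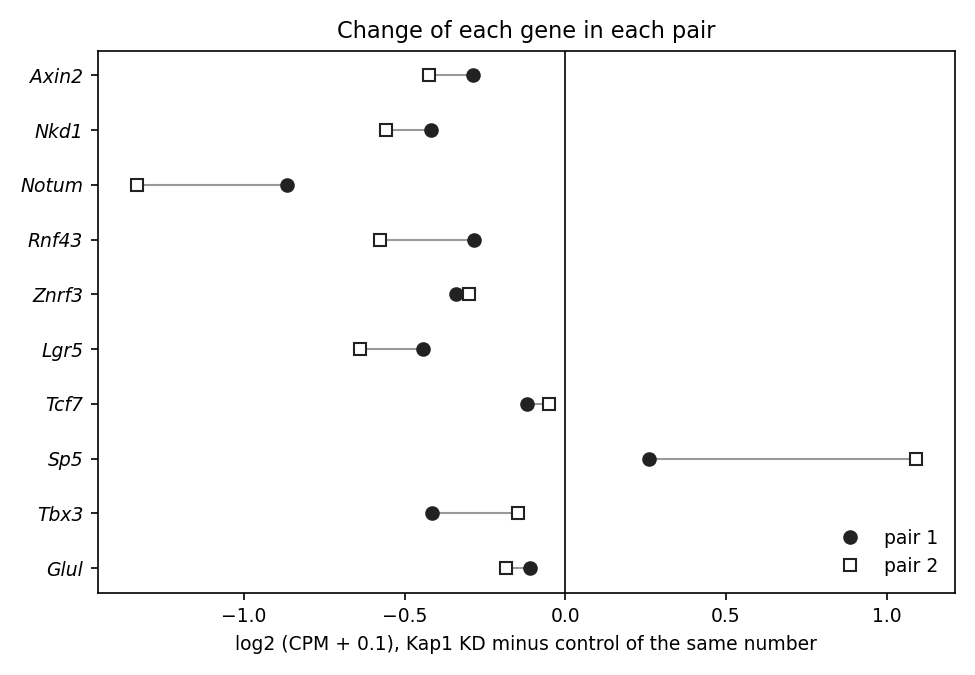
Difference in log2(CPM + 0.1) between the Kap1 KD and the control library of the same number, for each Wnt target gene; filled circles are pair 1, open squares pair 2, and the line joins them. All genes but Sp5 lie left of 0 in both pairs, from -1.33 for Notum in pair 2 to -0.05 for Tcf7 in pair 2, and Sp5 lies at 0.26 and 1.09.

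The genes differed widely in abundance. Per exonic length, the mean RPKM (CPM divided by the exonic length in kilobases, over the 4 libraries) was 71.5 for Glul, 65.1 for Sp5, 56.5 for Tcf7 and 43.6 for Axin2. Each of the 4 overlapped with the next of them, and they lay above 92.4%, 91.7%, 90.4% and 87.7% of the tested genes. Sp5 had 103 RPKM in Kap1 KD replicate 2, but its controls (49.6 and 48.3 RPKM) lay below those of Tcf7 (53.6 and 62.6 RPKM). Nkd1 came next with 27.3 RPKM and overlapped with neither Axin2 above it nor Tbx3 below it. Tbx3 (11.2 RPKM) and Rnf43 (9.65 RPKM) overlapped with each other, as did Znrf3 (4.31 RPKM), Lgr5 (4.08 RPKM) and Notum (3.25 RPKM), which lay above 44.8%, 43.6% and 39.5% of the tested genes.

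**Figure D3:**
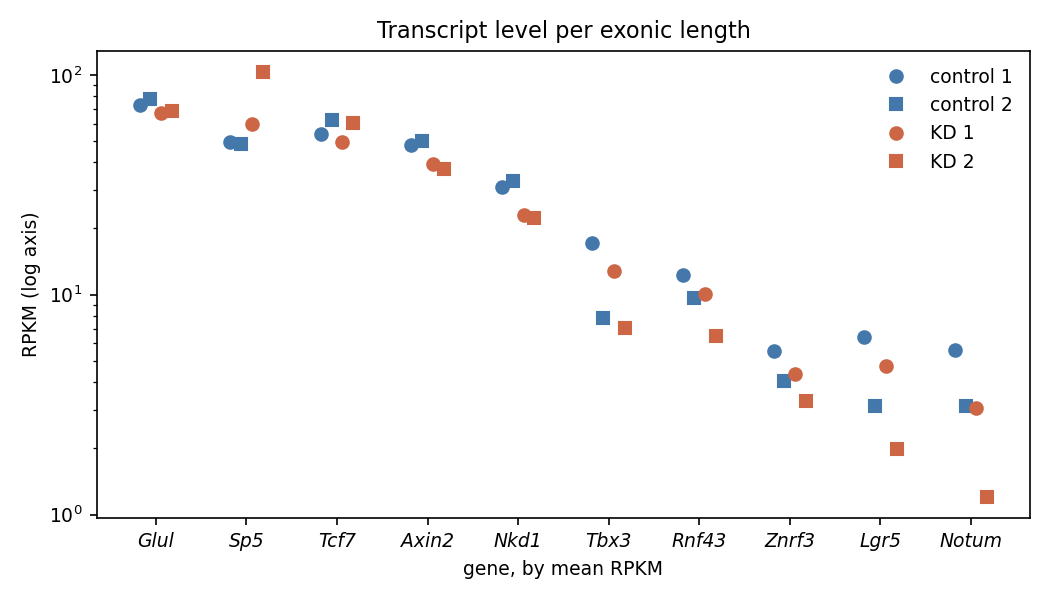
RPKM (log axis) of the Wnt target genes in the 4 libraries, ordered by mean; circles are replicate 1, squares replicate 2, blue control, orange Kap1 KD. Glul, Sp5, Tcf7 and Axin2 form an overlapping upper group with means from 71.5 to 43.6 RPKM, and Znrf3, Lgr5 and Notum a lower group with means from 4.31 to 3.25 RPKM.

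The libraries of replicate 2 differed from those of replicate 1 in some of these genes much more than Kap1 KD differed from control. In the edgeR quasi-likelihood fit with group and replicate number as terms, 2464 of 14142 genes (17.4%) were lower and 1284 (9.08%) higher in replicate 2, at 1.5-fold and a Benjamini-Hochberg adjusted p under 0.05. With total counts in place of TMM this split became 2957 lower and 847 higher. With each library corrected for GC content, a setting chosen after seeing the data, it became 986 lower and 810 higher. Without the fold threshold it became 4540 lower and 4450 higher.

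Lgr5, Notum and Tbx3 were lower in replicate 2 in both groups. The log2 difference was -1.15 (SE 0.07) for Lgr5, -1.06 (SE 0.13) for Notum and -1.001 (SE 0.08) for Tbx3. Rnf43 (-0.49) and Znrf3 (-0.43) were also lower, by less than 1.5-fold, and Tcf7 (0.26) was higher. Sp5 (0.38) was higher in replicate 2 in the Kap1 KD libraries, whereas its controls were nearly equal. Axin2 (-0.01), Nkd1 (0.02) and Glul (0.06) were near 0.

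Cell type markers differed between the replicate numbers too, by the same edgeR fit and thresholds, and the genes that passed are named because of these values. Over all tested genes, 17.4% were lower and 9.08% higher. Of 4 tested cholangiocyte markers 2 were lower in replicate 2, Krt7 (log2 difference -1.36, adjusted p = 2.94e-62) and Krt19 (-2.62, adjusted p = 2.13e-19). Of 7 tested hepatocyte markers 1 was lower, Alb (-0.88, adjusted p = 4.76e-47), and 1 was higher, Hnf4a (0.84, adjusted p = 4.85e-31). Both tested markers of Kupffer cells and leukocytes were higher, Csf1r (1.45, adjusted p = 2.15e-10) and Cd68 (0.94, adjusted p = 8.2e-10), as was Col1a1 (0.63, adjusted p = 0.0297), 1 of 2 tested markers of stellate cells and fibroblasts. The only tested endothelial marker, Pecam1 (0.26, adjusted p = 0.692), did not pass. The summed levels of these lists are given with the markers below, and their part in the replicate difference of the Wnt target genes was not tested.

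Base composition moved with the replicate number. Across 14118 tested genes with an annotated sequence, which share the 4 libraries and are not independent replicates, the Spearman correlation between the replicate difference and exonic GC content was 0.66, and that between the Kap1 KD change and GC content was 0.33. The exonic GC content was 44% for Lgr5, 53.2% for Tbx3, 59.7% for Notum and 62% for Sp5, against a median of 49.8% over the tested genes. With each library corrected for GC content, a setting chosen after seeing the data, Notum (-1.42), Tbx3 (-1.19), Lgr5 (-0.70) and Rnf43 (-0.61) were lower in replicate 2 by more than 1.5-fold, while the difference of Sp5 turned to -0.08 and that of Tcf7 to 0.03. The differences of Axin2 and Nkd1, near 0 before, became -0.32 and -0.22 with the correction. In the GC-corrected values 9 of 10 genes were again lower and Sp5 higher in Kap1 KD in both pairs. The Kap1 KD change of Sp5 was then 0.51 in place of 0.73, with 0.30 and 0.73 in pairs 1 and 2. Those of the other genes moved less.

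**Figure D4:**
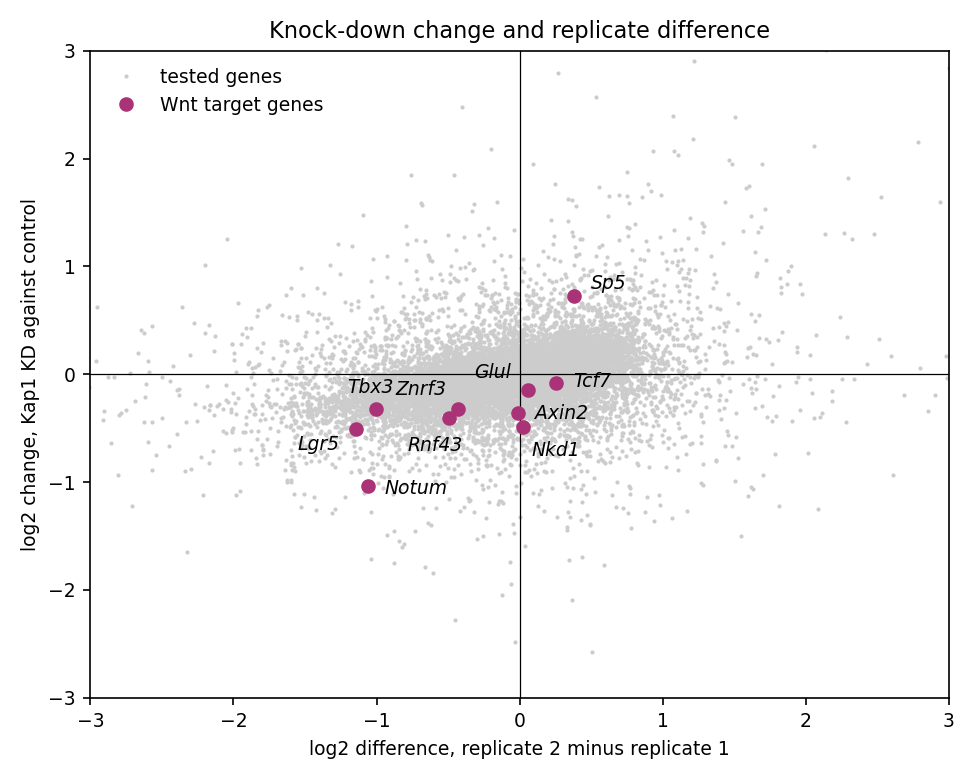
Log2 change in Kap1 KD against control (vertical axis) and log2 difference of replicate 2 minus replicate 1 (horizontal axis) for the tested genes (grey) and the 10 Wnt target genes (purple); 47 tested genes lie outside the range of -3 to 3. Lgr5, Notum and Tbx3 sit at the left, at -1.15, -1.06 and -1.001, whereas Axin2 and Nkd1 sit near 0 on the horizontal axis and below 0 on the vertical axis.

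Other genes of the pathway were listed by their role, with earlier results of these data known. Of 117 such genes, 93 were listed in the table, which holds only genes with at least 1 count, so that a gene not listed may have had no reads. Of the 93, 71 passed the filter on low counts, and 0 were called higher or lower in Kap1 KD by edgeR at 1.5-fold and an adjusted p under 0.05. None of the 71 had an unadjusted p under 0.05 (0 genes), and DESeq2 called 0. Their median log2 change was -0.10, with 37 of the 71 lower and 17 of the 71 higher in both pairs. Over all 14142 tested genes, 5392 (38.1%) were lower and 4644 (32.8%) higher in both. The share lower was thus larger, and the share higher smaller, among the pathway genes. Nothing more is read from this comparison, since earlier results were known when the lists were drawn up.

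Among 19 Wnt ligands, 13 were listed in the table and 4 were tested. Wnt6 was the most abundant of them, at 189 and 245 CPM in control replicates 1 and 2 and at 149 and 245 CPM in Kap1 KD replicates 1 and 2. Wnt10a was at 43 and 67.2 CPM in the controls and at 45.5 and 97.1 CPM in Kap1 KD. Wnt7b had few reads, with 11 and 18 counts in the controls and 14 and 43 in Kap1 KD. For Wnt6, Wnt10a and Wnt7b the groups overlapped. For the other tested ligand, Wnt5a, which is named here because its values were seen to differ from theirs, both Kap1 KD libraries (35.5 and 40.4 CPM) lay below both controls (45.7 and 48.2 CPM), with a log2 change of -0.31 (SE 0.19) and of -0.36 and -0.25 in the pairs. Of 7 genes for ligand maturation and secretion, 6 were tested, and the most abundant per length were Tmed2 (log2 change -0.08, SE 0.20) and Vps35 (-0.15, SE 0.31), which act in the traffic of many proteins. The log2 change of Tmed2 became 0.06 and -0.20 without control replicates 1 and 2, and -0.24 and 0.07 without Kap1 KD replicates 1 and 2. That of Vps35 became 0.16, -0.38, -0.48 and 0.14 in the same order. With the GC correction, chosen after seeing the data, that of Tmed2 became -0.04 and that of Vps35 -0.02.

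At the membrane, 12 of 16 receptor and co-receptor genes were tested. The co-receptor Lrp5 was at 132 and 145 CPM in the controls and 126 and 161 CPM in Kap1 KD, and Ryk, an atypical Wnt receptor, at 63.4 and 61.8 CPM in the controls and 59.3 and 57.5 CPM in Kap1 KD. Fzd4, a Frizzled receptor, was at 18.3 and 10.1 CPM in the controls and at 10.9 and 7.31 CPM in Kap1 KD. Lrp5 and Fzd4 overlapped between the groups, whereas Ryk did not. The R-spondin genes are not listed in the table, and of the R-spondin receptors besides Lgr5, Lgr4 was at 24.1, 12.2, 18.2 and 9.73 CPM in control replicates 1 and 2 and Kap1 KD replicates 1 and 2. Its relative Lgr6 had 17, 29, 12 and 66 counts in the same order. Lgr4 was low in both replicate 2 libraries, as Lgr5 was. Of 14 secreted antagonists and their co-receptors, 2 were tested, Kremen1 at 9.58 to 13.5 CPM and Dkk2 at 8 to 39 counts.

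In the cytoplasm, 17 of 18 genes of the destruction complex and of signal transduction were tested, with a median log2 change of -0.03. In both pairs, 7 were lower and 6 higher in Kap1 KD (over all tested genes, 38.1% and 32.8%). The log2 changes ran from -0.56 for Tnks2 to 0.57 for Apc2, which had 11 to 20 counts, both named because of their values. Tnks2 was at 389.5 and 237 CPM in control replicates 1 and 2 and at 262 and 164 CPM in Kap1 KD replicates 1 and 2. Its groups overlapped, and its change (SE 0.35) was -0.57 and -0.53 in the pairs. Axin1, the constitutive counterpart of Axin2, was at 99 and 128 CPM in the controls and at 107 and 142 CPM in Kap1 KD. Its groups overlapped, with a log2 change of 0.13 (SE 0.24) that became -0.04 and 0.35 without control replicates 1 and 2, and 0.32 and -0.08 without Kap1 KD replicates 1 and 2. Fbxw11, a subunit of the ubiquitin ligase that recognises phosphorylated β-catenin, ranged from 165 to 182 CPM.

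In the nucleus, 18 of 19 genes were tested. Ctnnb1, which encodes β-catenin, was at 505 and 501.5 CPM in control replicates 1 and 2 and at 398 and 387 CPM in Kap1 KD replicates 1 and 2. Its groups did not overlap, and its log2 change was -0.36 (SE 0.15), -0.35 and -0.37 in the pairs. It did not pass the test (edgeR quasi-likelihood with Benjamini-Hochberg adjustment, adjusted p = 0.9999), and neither did Trim28, with the same adjusted p. The result for Ctnnb1 with the replicate number as a block is given below with the processing. Of the TCF/LEF genes besides Tcf7, Tcf7l2 was at 8.57 to 15.1 CPM and overlapped between groups, Lef1 was at 1.31 to 1.56 CPM, and Tcf7l1 had 3 counts in control replicate 1 and 0 in the other libraries. Tcf7 was thus the most abundant of the TCF/LEF genes per length, with 56.5 RPKM against 1.33 for Tcf7l2. The co-repressor gene Aes was the most abundant of the nuclear list per length, with a mean of 332.5 RPKM against 87.8 for Ctnnb1, and was at 426 to 556 CPM, and the related Tle2 was at 3.07 and 1.71 CPM in the controls and 1.62 and 1.48 CPM in Kap1 KD.

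Of 18 further genes reported as targets in other tissues, 10 were tested. Of these, 4 were lower and 4 higher in Kap1 KD in both pairs (over all tested genes, 38.1% and 32.8%). Without overlap between groups, 2 were lower, Jag1 (log2 change -0.40) and Sox9 (-0.26), and 2 higher, Myc (0.20) and Cd44 (0.06). Over all tested genes these shares were 10.6% and 9.69%, and the 4 genes are named because of their values. Ccnd1, which encodes cyclin D1, ranged from 1073 to 1137 CPM, with a log2 change of -0.01 (SE 0.16). This change became 0.03 and -0.02 without control replicates 1 and 2, and -0.05 and 0.05 without Kap1 KD replicates 1 and 2. Plaur, the urokinase receptor gene, was at 91.8 and 147 CPM in the controls and at 125 and 195 CPM in Kap1 KD, so that its groups overlapped. It was higher in Kap1 KD within each pair, by 0.45 and 0.41 on the log2 scale.

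**Figure D5:**
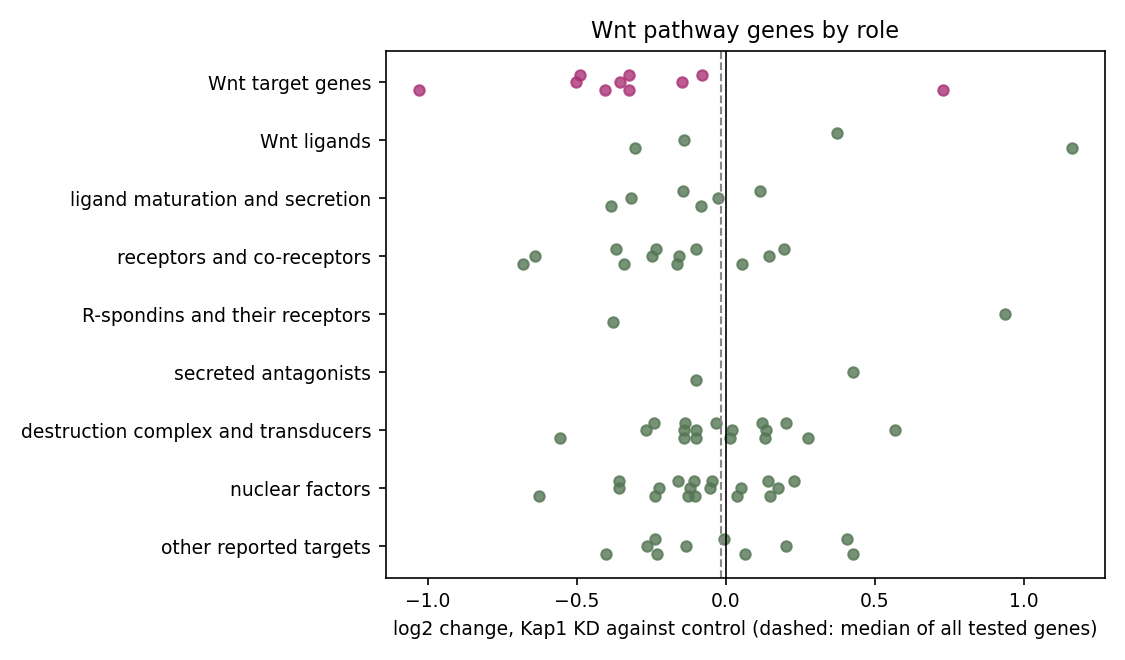
Log2 change in Kap1 KD against control of each tested gene, by role in the Wnt pathway; purple points are the 10 Wnt target genes, green points the other genes, small vertical shifts only separate points, and the dashed line is the median of all tested genes (-0.02). Points of the other roles lie on both sides of 0, and none of the 71 green points passed the edgeR test.

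The 5 genes whose profile was most like that of Axin2 were sought among 11813 tested genes with a mean of at least 1 CPM, by the Euclidean distance between centred log2(CPM + 0.1) values over the 4 samples. They were Nadsyn1 (distance 0.04), Tbc1d2b (0.05), Pomt1 (0.05), Ctnnb1 (0.06) and Anxa4 (0.06). The profile of Ctnnb1 thus ranked 4 from the nearest. Of the other Wnt target genes, Nkd1 ranked 104, Glul 428 and Tcf7 2533, and Notum ranked 11401. Since Axin2 was chosen with its pattern known and differs little between replicate numbers in values not corrected for GC content, any gene with a like change in Kap1 KD and a small replicate difference ranks high here.

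The label of the cells was compared with marker genes. Of 9 hepatocyte markers 7 were tested, and Alb, the most abundant per length, was at 1580 and 1037 CPM in control replicates 1 and 2 and at 975 and 441 CPM in Kap1 KD replicates 1 and 2. The summed level of the list was 2449, 2065, 1704 and 1075 CPM in the same order. All 7 tested markers were lower in Kap1 KD in both pairs (over all tested genes, 38.1%), and for 6, all but Hnf4a, both Kap1 KD libraries lay below both controls (over all tested genes, 10.6%). Of the 7, 0 were called by edgeR and 0 by DESeq2. By edgeR, 2 had an unadjusted p under 0.05 (over all tested genes, 1.31%), Apob (0.00325) and Apoa1 (0.0414, with 5 to 21 counts). Hnf4a, Apob and Apoa1 are named because of their values. Ttr and Ahsg, which mature hepatocytes express strongly, had at most 11 counts in any library. These markers were thus lower in the same libraries as Axin2 and Nkd1, and their part in that difference was not tested.

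The markers of other liver cells ranged widely. The summed level of liver endothelial markers was 0.18 to 0.376 CPM (most abundant Pecam1), and that of stellate cell and fibroblast markers 1.58 to 2.48 CPM (Des, per length). Kupffer cell and leukocyte markers summed to 5.045, 9.775, 4.225 and 9.662 CPM in control replicates 1 and 2 and Kap1 KD replicates 1 and 2 (Cd68). Cholangiocyte markers summed to 228, 198, 177 and 140.3 CPM in control replicates 1 and 2 and Kap1 KD replicates 1 and 2, and the most abundant, Spp1, had a mean of 72.4 RPKM, next to 71.5 RPKM for Glul. The sum came mostly from Spp1 and Krt7 (25.1 to 83 CPM), whereas Krt19 was at 0.235 to 2.23 CPM and Cftr had at most 4 counts in a library. All 4 tested cholangiocyte markers were lower in Kap1 KD in both pairs, as were 38.1% of all tested genes. Lyve1, Lrat and Clec4f are not listed in the table used.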

How the data were processed

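Poly(A) RNA of Hepa 1-6 cells was measured in 2 Kap1 KD and 2 control libraries. The authors aligned the reads to mm9 with TopHat2 (2.0.11) and deposited raw read counts per Ensembl gene from HTSeq (0.6.1), per the submitters' processing notes. The deposited tables of small RNA counts hold none of the Wnt genes and were not used. The columns of the mRNA table match the sample titles, and total counts ranged from 41566888 to 53605115, so that genes with few counts are the least precise.

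From these counts, genes were filtered (filterByExpr), scaled by TMM and tested in R 4.3.3 with edgeR 4.0.16 (glmQLFit and glmQLFTest), with no replicate term for Kap1 KD against control and with group and replicate number for the replicate difference. Called genes changed 1.5-fold at a Benjamini-Hochberg adjusted p under 0.05. The SE is the absolute log2 change over the square root of F. Pair differences used log2(CPM + 0.1), and RPKM used the union of exons in GENCODE vM1 (mm9). The scripts were tested on simulated data. Of 21915 identifiers, 21806 had a symbol.

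The members and gene lists were chosen with earlier results of these data known. Named genes are the 10 targets, Trim28, Ctnnb1, Axin1, the TCF/LEF genes and the 5 genes most like Axin2. Each pathway or zone list adds the 2 most abundant genes per length and any called with or without the replicate number as a block. Each marker list adds the most abundant gene and any at 0. Wnt5a, Tnks2 and further genes of the pathway and marker lists are named because of their values. Alternatives were DESeq2 (1.42.0), other scalings, no low-count filter, no fold threshold, other pseudocounts, the replicate block, each library left out and, chosen after seeing the data, a GC correction (loess, span 0.5).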

Additional observations from a re-analysis of the deposited data

How the results depend on the processing

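Replicate numbers are shared by 1 library of each group, but no label ties them to a common culture or day, so the tests of Kap1 KD against control use no pairing, and values in pairs of same-numbered samples only describe. The deviations of same-numbered samples from their group means correlated at 0.813 across tested genes, and the first principal component (75.8% of the variance) separated the numbers. With the replicate number as a block, edgeR called 631 genes in Kap1 KD against control, 292 higher (2.06%) and 339 lower (2.4%), in place of 0, and DESeq2 with the block called 231, of which 227 were among the 631. Of the other Wnt pathway genes, the block gave 3 calls by edgeR (Wnt7b higher, Fzd4 and Tle2 lower) and 1 by DESeq2 (Fzd4). Of the cell type markers it gave 5 by edgeR, named because of these calls, with Alb (adjusted p = 1.08e-55), Apob (3.12e-37), Apoa1 (0.0308) and Epcam (2.5e-07) lower and Col1a1 (0.0326) higher, and of the liver zone genes Cyp1a2 (0.0308) and Gls2 (0.000746) lower. With the block in DESeq2 the adjusted p was 0.0226 for Alb, 1.3e-13 for Apob, 0.00839 for Epcam and 0.129 for Gls2, and Apoa1, Col1a1 and Cyp1a2 were given none. By edgeR with the block and no fold threshold, 7 of 71 tested pathway genes were higher and 16 lower at an adjusted p under 0.05. Over all 14142 tested genes, 1426 were higher and 1626 lower. Ctnnb1 and Tnks2 were among the lower ones, by less than 1.5-fold. Their adjusted p was 3.84e-09 and 2.4e-19, and 0.000295 and 3.77e-09 with the block in DESeq2. With the block and the GC correction, chosen after seeing the data, edgeR called 564 genes, 507 of them among the 631. Of the pathway genes it called 1 (Tle2), and Col1a1 no longer passed (0.0628). The log2 changes of the genes no longer called moved less, from -0.62 to -0.57 for Fzd4, 1.12 to 0.91 for Wnt7b and 0.72 to 0.64 for Col1a1. The cause of these differences was not tested.

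Without a block, DESeq2 called 3 genes. RLE or total-count scaling, no low-count filter, no fold threshold and the GC correction each left 0 called by edgeR. Leaving out each library in turn gave 3 to 65 called genes and 0 pathway genes, with the lone sample of a group assumed to vary like the other group. Between replicate numbers, 3748 genes were called, 8990 without the fold threshold, which admits smaller differences, and 1796 with the GC correction. Leaving out a library was not possible there, since no residual degrees of freedom remained.

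Some replicate differences changed sign. That of Axin2 (-0.0122) was 0.0067 with DESeq2, 0.0011 with RLE scaling and 0.0018 without the low-count filter. With total-count scaling that of Nkd1 was -0.0677 and that of Glul -0.0299. With the GC correction that of Nkd1 was -0.218 and that of Sp5 -0.076. The cause was not tested. That of Rnf43 was -0.61 with the GC correction, and that of Notum was -1.01 without the group term.

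Over all results and alternatives, 544 values stayed within the spread between pairs, within 1.5 times a count or on the same side of a test, and 188 moved further, 122 of them with a library left out. Depth limits Wnt7b, Lgr6, Dkk2 and Tcf7l1, with at most 66 counts in a library.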

Other observations

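Genes that mark the zones of the liver lobule were at most weakly expressed in these cells, apart from a few. Of 12 pericentral genes 10 were tested, 0 were called in Kap1 KD against control by edgeR (0 at an unadjusted p under 0.05, 0 by DESeq2), and 6 were lower and 1 higher in both pairs (over all tested genes, 38.1% and 32.8%). Oat, the most abundant per length, was at 242 and 234 CPM in control replicates 1 and 2 and at 240.2 and 216 CPM in Kap1 KD replicates 1 and 2. Lect2 was at 46 and 49.8 CPM in the controls and at 41.8 and 36.8 CPM in Kap1 KD, without overlap. Cyp1a2, a cytochrome P450 of pericentral hepatocytes, had 32 and 31 counts in the controls and 9 and 17 in Kap1 KD.

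Of 13 periportal genes 4 were tested and 0 were called by edgeR (0 at an unadjusted p under 0.05, 0 by DESeq2). Asl and Ass1, enzymes of the urea cycle, were both higher in replicate 2. Asl was at 82.3 and 124 CPM in control replicates 1 and 2 and at 94.3 and 145 CPM in Kap1 KD replicates 1 and 2, and Ass1 at 6.14, 26.7, 4.98 and 19.8 CPM in that order. The log2 difference of Ass1 between replicate numbers was 2.06 (adjusted p = 2.07e-73, edgeR quasi-likelihood with Benjamini-Hochberg adjustment). Gls2, a liver glutaminase, was at 5.94 and 6.09 CPM in the controls and at 4.09 and 3.87 CPM in Kap1 KD, without overlap.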
